A study of Rattus norvegicus with 11 samples.

Results

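Interferon-stimulated genes, which cells transcribe at a higher rate after interferon binds its receptor, were measured in rat renal cortex on 11 one-colour oligonucleotide arrays. A set of 34 such genes was listed by symbol. A gene counted as measured where a probe that is not a control spot carried its RefSeq accession and lay well above background on at least 2 arrays, and the brightest such probe stood for it. Of the 34 genes, 30 were measured, among 25256 genes tested in all, and these 30 were well above background on all 11 arrays. Xaf1, Herc6, Zbp1 and Nlrc5 matched no probe by accession and were not analysed here.

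The cortex came from SD (Sprague Dawley) rats. DM+Sham rats (3 arrays) had type 1 diabetes induced with streptozotocin (STZ), which destroys pancreatic beta cells, and had a sham operation 4 weeks later. Control+RYGB rats (3 arrays) had no diabetes and had Roux-en-Y gastric bypass, surgery that joins a small stomach pouch to a lower stretch of the small intestine. DM+RYGB rats (2 arrays) had STZ diabetes followed 4 weeks later by the bypass. Control+Sham rats (3 arrays) had no diabetes and a sham operation. All cortex was taken 4 weeks after surgery, and all 4 groups had undergone an operation. Whether replicates are separate animals, or pools of them, is not stated in the labels, so the p-values measure the spread between these arrays, which may be technical.

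Type I interferons signal through Jak kinases to a transcription factor complex that holds Stat2 and Irf9 and binds the interferon-stimulated response element, a short motif repeated around GAAA. Interferon gamma acts mainly through gamma activated sites and induces Irf1 and the guanylate-binding proteins. The products sense viral RNA, feed back on the pathway, or block viral replication, and in kidney tubule, endothelial and immune cells they are transcribed at a basal level without infection.

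Depth on arrays is signal over background: between 77.8% and 93.5% of 30367 probes per array exceeded background, and none was saturated. All 7 proximal tubule and all 5 podocyte markers listed were well above background on all 11 arrays. DM+Sham 2 and 3 differed by a spread of 0.021 on the log2 scale, below the spread of repeated spots on these arrays (0.067 and 0.069), and Control+RYGB 2 and 3 by 0.051 (0.077 and 0.068), so each pair was averaged and counted as 1 sample. This left 2 samples in each of the DM+Sham, Control+RYGB and DM+RYGB groups and 3 in Control+Sham. The 2 DM+RYGB arrays stood apart from each other, with a spread of 0.38, against 0.10 to 0.20 for pairs of Control+Sham arrays, and counts that rest on DM+RYGB are given without each of them.

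Promoters are shown for 4 members that hold the response element and fell in DM+Sham, chosen as those with the smallest p, so that the motif shared by the set can be read. RefSeq promoters (GRCr8, 250 bases before the annotated start and 50 after it) matched 24 of the 30 measured genes. The letters searched for the interferon-stimulated response element were GAAA, any 2 bases, then GAAA, on either strand, and they stood in 15 of these 24 promoters (62.5%), against 3.77% of 27457 rat promoters of this length. Those searched for the gamma activated site, TTC, any 3 bases, then GAA, stood in 6 of 24 (25.0%), against 8.68% of all promoters. Capitals mark the first motif in the 4 sequences, which are given 5′ to 3′ along the gene, where a match on the opposite strand reads TTTC, any 2 bases, then TTTC.
Irf7, chr1:205799974-205800273, minus strand: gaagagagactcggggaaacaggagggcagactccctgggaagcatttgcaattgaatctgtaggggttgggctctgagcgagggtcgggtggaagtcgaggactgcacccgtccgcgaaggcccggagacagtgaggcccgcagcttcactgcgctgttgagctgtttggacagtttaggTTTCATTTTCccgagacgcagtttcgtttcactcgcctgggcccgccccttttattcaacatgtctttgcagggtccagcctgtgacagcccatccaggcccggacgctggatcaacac
Ifit3, chr1:241527076-241527375, plus strand: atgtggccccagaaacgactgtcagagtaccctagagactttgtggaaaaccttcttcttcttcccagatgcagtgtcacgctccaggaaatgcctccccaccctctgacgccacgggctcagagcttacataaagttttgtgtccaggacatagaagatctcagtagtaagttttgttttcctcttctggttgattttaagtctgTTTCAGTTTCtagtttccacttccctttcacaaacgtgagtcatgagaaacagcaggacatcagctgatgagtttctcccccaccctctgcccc
Ifi44l, chr2:243328473-243328772, plus strand: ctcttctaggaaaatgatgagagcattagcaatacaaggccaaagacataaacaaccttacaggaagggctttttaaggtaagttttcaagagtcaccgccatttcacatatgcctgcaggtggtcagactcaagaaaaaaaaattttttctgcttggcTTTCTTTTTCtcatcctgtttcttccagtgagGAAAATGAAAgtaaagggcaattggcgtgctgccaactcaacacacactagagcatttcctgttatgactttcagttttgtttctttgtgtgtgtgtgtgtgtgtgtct
Ifih1, chr3:67683919-67684218, minus strand: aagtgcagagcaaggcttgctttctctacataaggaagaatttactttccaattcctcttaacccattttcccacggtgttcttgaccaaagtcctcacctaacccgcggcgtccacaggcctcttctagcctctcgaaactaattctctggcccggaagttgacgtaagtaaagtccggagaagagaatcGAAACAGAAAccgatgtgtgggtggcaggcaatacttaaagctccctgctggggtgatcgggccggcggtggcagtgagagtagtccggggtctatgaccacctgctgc
Counted from the annotated start, the motif begins at -69 in Irf7, -44 in Ifit3 and -59 in Ifih1, and Ifi44l holds one on each strand, at -91 and -59. A match describes the letters in this window and not binding. Of the 15 members with the response element, 6 fell in DM+Sham, and of the 9 without it 4 fell, so both kinds of promoter were found among the genes that fell. Isg15, Usp18, Ifit2, Dhx58, Adar and Mx2 had no promoter in the table.

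Values below are levels: the log2 of the background-subtracted probe signal minus the 75th percentile of that array, so that 0 is the level below which 75% of the probes of the array lie. A level is compared between arrays for 1 probe and never between probes. A change is the difference of group means on this scale, given with its standard error (SE) and with a p from limma adjusted over all genes tested. The words rose and fell are kept for an adjusted p under 0.05 in 1 direction under each of 3 scalings: the 75th percentile, the median and quantiles. Other changes are called uncalled. In whole cortex, fewer cells that transcribe a gene and less RNA of it per cell cannot be told apart.

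Control+Sham had the highest of the 4 group means for 16 of 30 interferon-stimulated genes, against 14.5% of all genes tested. These 16 held under all 3 scalings, against 13.8% of all genes. For 15 of the 30, every Control+Sham array lay above all 8 arrays of the other groups, against 6.75% of all genes. For 14 this held under all 3 scalings, against 6.18%. The lowest mean was that of DM+Sham for 14 genes (29.6% of all genes), Control+RYGB for 10 (19%), DM+RYGB for 5 (21.7%) and Control+Sham for 1 (29.8%), Bst2, which tethers budding virus particles to the cell. DM+RYGB held the highest mean for 9 members, against 47.1% of all genes, Control+RYGB for 3 (18.4%) and DM+Sham for 2 (20%). The count of 16 depends on the scale, as it was 24 with median scaling alone, 22 with quantile scaling alone and 13 after normexp background correction. The share of all genes under each of these settings is not given here, so these counts cannot be set against a background. Markers of urothelium, the lining of the renal pelvis, were also higher in Control+Sham, with 6 of 7 lower in DM+Sham, 6 in Control+RYGB and 5 in DM+RYGB, and their part in these results was not tested.

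**Figure D1:**
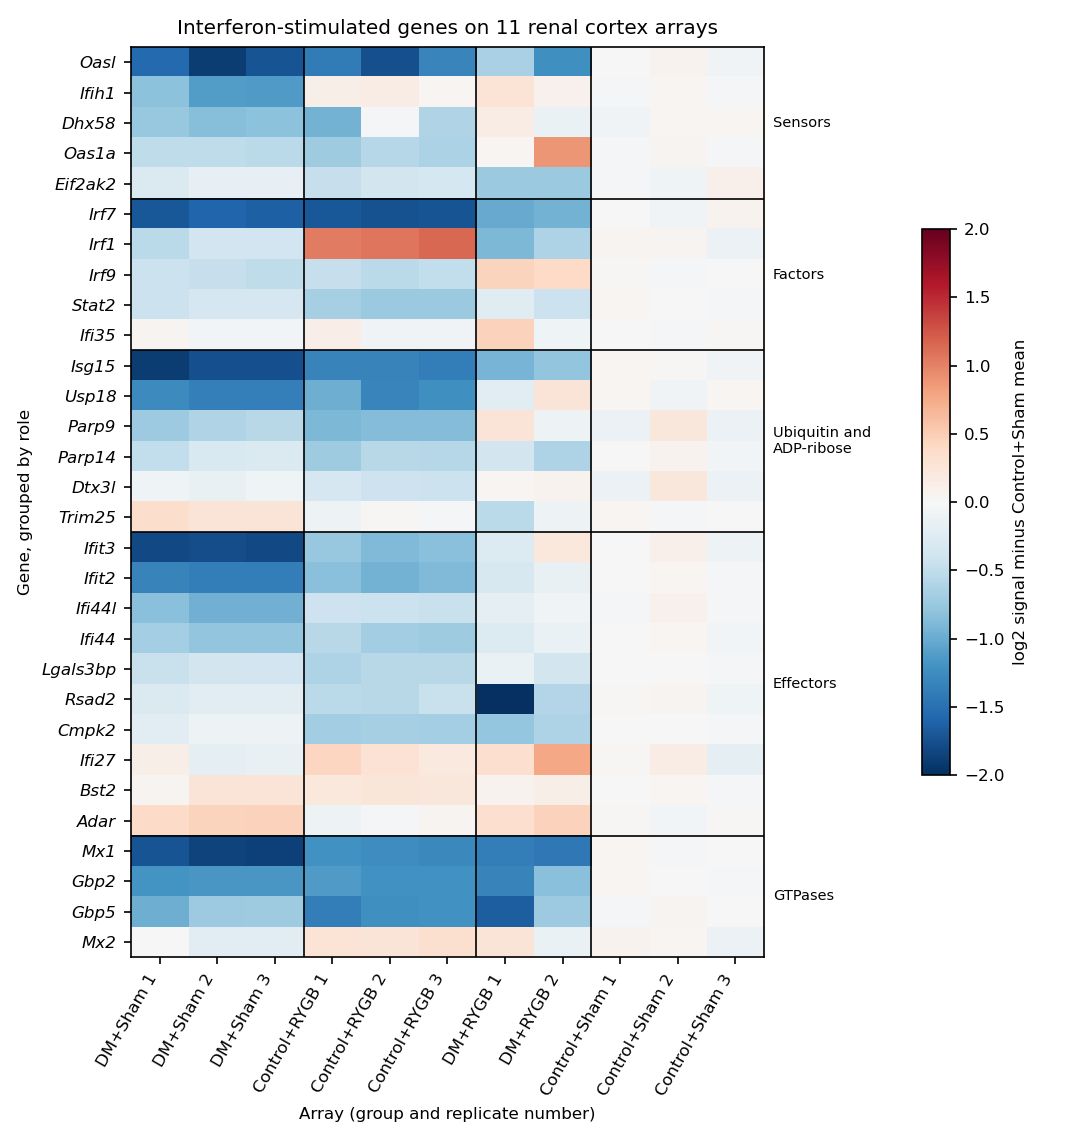
Colour gives the log2 signal of each of the 30 measured genes (rows, grouped by role) on each of the 11 arrays (columns) minus the mean of the Control+Sham arrays, cut off at 2 in either direction. The DM+Sham and Control+RYGB columns are mostly blue, the DM+RYGB columns are mixed, and the Irf1 row is red in Control+RYGB alone.

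Interferon-stimulated transcripts were lower in diabetic sham-operated rats. In DM+Sham against Control+Sham, 14 of 30 genes fell and 0 rose, where 6.64% of all genes fell, 5.9% rose and 12.5% changed in either direction. The unadjusted p was under 0.05 for 20 of the 30. The median change of the 30 genes was -0.49, against 0.04 for all genes tested. With 75th percentile scaling the falls were steepest for Isg15, Ifit3, Mx1, Oasl and Irf7. Leaving out DM+Sham 2 and 3, which leaves the single array DM+Sham 1, gave 8 genes, and normexp background correction gave 1, with all 14 changes keeping their sign. Scan days 2 and 3 held arrays of both groups, and on each day all 14 genes were lower in DM+Sham (the Isg15 difference was -1.92 on day 2 and -1.70 on day 3). The 14 genes were called from these same arrays, so the shared sign is not a separate test. Scan day as a block left 9.

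Levels were also lower after bypass in rats without diabetes. In Control+RYGB against Control+Sham, 18 of 30 genes fell and 1 rose, where 8.36% of all genes fell, 6.93% rose and 15.3% changed. The median change was -0.63, against 0.15 for all genes. With 75th percentile scaling Irf7, Oasl, Isg15, Gbp5 and Mx1 fell most, and Irf1, which interferon gamma induces, was the 1 gene that rose. The total of 19 was 6 without Control+RYGB 1, 10 without Control+Sham 1, 11 without Control+Sham 2, 5 without Control+RYGB 2 and 3, and 1 after normexp, with all 19 signs kept. No scan day held arrays of both groups, every Control+RYGB array lay at a slide position that no other array had, so group and position cannot be told apart, and scan day as a block, which links the groups only through the other arrays, left 1 gene.

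Diabetic rats with bypass also had lower levels of some members. In DM+RYGB against Control+Sham, 11 of 30 genes fell and 0 rose, where 16% of all genes fell, 11.9% rose and 27.9% changed. The unadjusted p was under 0.05 for 15 of the 30. The median change was -0.22, against 0.38 for all genes, and -0.67 under median scaling, where it was -0.08 for all genes. With only probes well above background on all arrays, the median of all genes was 0.21. With 75th percentile scaling the largest falls were those of Mx1, Rsad2, Gbp5, Gbp2 and Irf7, whereas with quantile scaling Oasl had the largest, at -1.90. The count was 14 without DM+RYGB 1, 12 without DM+RYGB 2, 17 with median scaling alone and 4 with scan day as a block. No scan day held both groups. Taken relative to the median of all genes, the members' median was -0.52 in DM+Sham, -0.78 in Control+RYGB and -0.59 in DM+RYGB, and -0.56, -0.59 and -0.27 with quantile scaling. These 3 comparisons share the Control+Sham arrays, so their values stand side by side without a count of overlap.

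**Figure D2:**
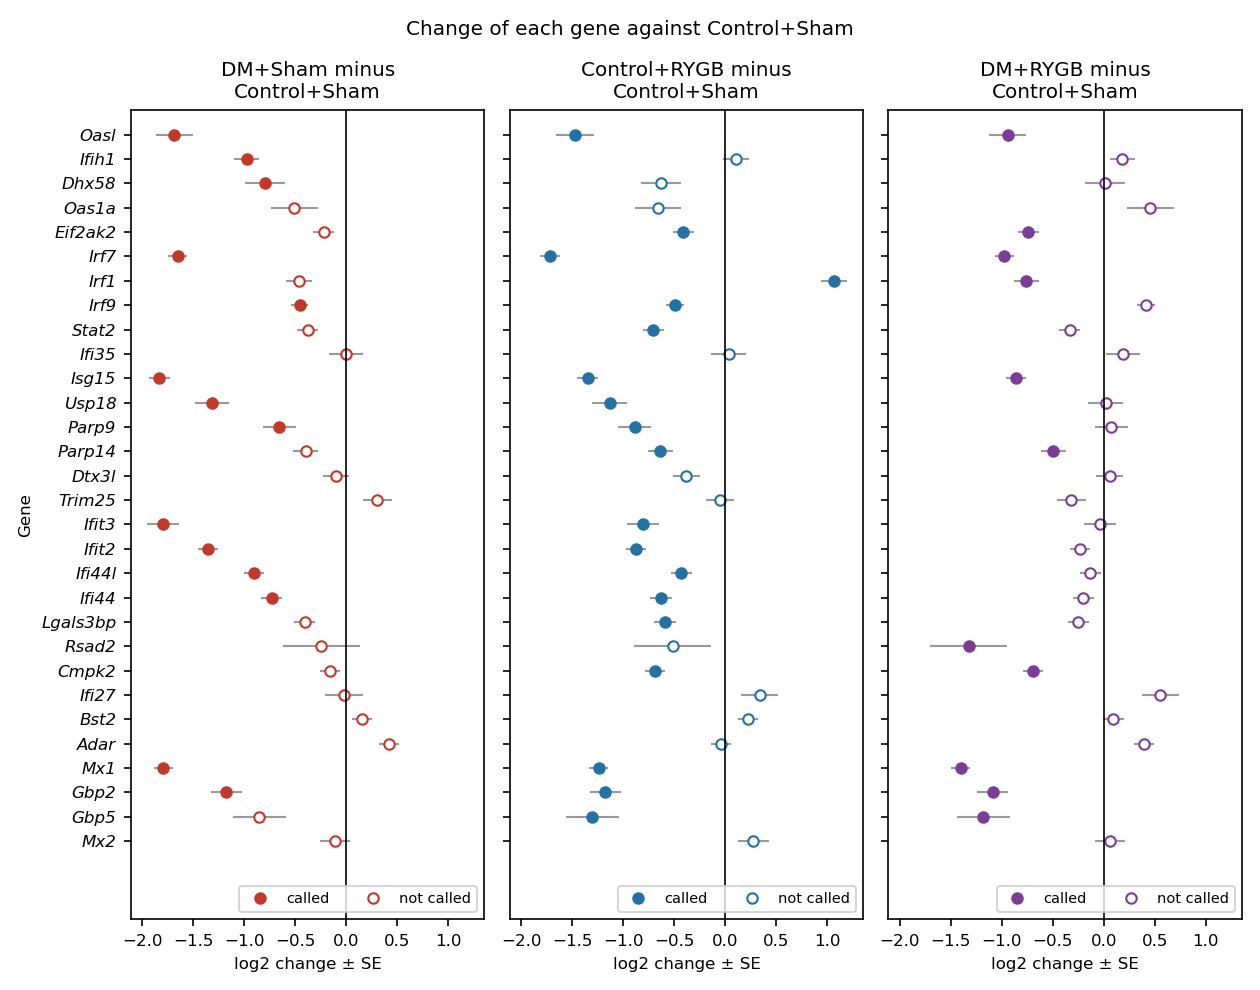
Each point is the log2 change of 1 gene (rows) with its SE (line) in DM+Sham, Control+RYGB and DM+RYGB, each minus Control+Sham. Filled points passed an adjusted p of 0.05 under 3 scalings: 14 of 30 in DM+Sham, 19 in Control+RYGB and 11 in DM+RYGB, all on the left of 0 except Irf1 in Control+RYGB.

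Among the RNA sensors, Ifih1 and Dhx58, helicases that recognise double-stranded RNA, fell in DM+Sham. Oasl, of the oligoadenylate synthetase family, fell in all 3 comparisons with Control+Sham. Oasl read -6.41, -6.76 and -6.59 on the DM+Sham arrays, -6.26, -6.61 and -6.19 on the Control+RYGB arrays, -5.51 and -6.09 on the DM+RYGB arrays, and -4.86, -4.79 and -4.92 on the Control+Sham arrays. No array of the other 3 groups reached the Control+Sham range. The change was -1.69 in DM+Sham (SE 0.18, adjusted p = 0.0021), -1.47 in Control+RYGB (SE 0.18, adjusted p = 0.005) and -0.94 in DM+RYGB (SE 0.18, adjusted p = 0.0061). This probe was dim, and after normexp the DM+RYGB change turned to 1.06 (adjusted p = 0.21).

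Ifih1 read -3.56, -3.85 and -3.87 on the DM+Sham arrays, -2.61, -2.58 and -2.69 on the Control+RYGB arrays, -2.45 and -2.65 on the DM+RYGB arrays, and -2.75, -2.69 and -2.76 on the Control+Sham arrays. DM+Sham lay below every other array, and the other groups lay close together. The change was -0.98 in DM+Sham (SE 0.12, adjusted p = 0.0037), 0.11 in Control+RYGB and 0.18 in DM+RYGB, and the Control+RYGB and DM+RYGB changes did not pass. Dhx58 read -2.67, -2.75 and -2.73 on the DM+Sham arrays, -2.86, -1.93 and -2.50 on the Control+RYGB arrays, -1.76 and -2.04 on the DM+RYGB arrays, and -1.98, -1.88 and -1.87 on the Control+Sham arrays. The Control+RYGB arrays were spread widely and reached into the range of DM+Sham at one end and of Control+Sham at the other. Dhx58 fell by 0.80 in DM+Sham (SE 0.20, adjusted p = 0.035).

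Eif2ak2, the kinase that halts translation on sensing double-stranded RNA, followed another order. Eif2ak2 gave 0.10, 0.22 and 0.22 on the DM+Sham arrays, -0.08, 0.02 and 0.03 on the Control+RYGB arrays, -0.36 and -0.36 on the DM+RYGB arrays, and 0.36, 0.30 and 0.48 on the Control+Sham arrays. DM+RYGB was lowest and Control+Sham highest, with no overlap. Eif2ak2 changed by -0.22 in DM+Sham (not called), -0.41 in Control+RYGB (SE 0.10, adjusted p = 0.034) and -0.74 in DM+RYGB (SE 0.10, adjusted p = 0.0018). Oas1a, whose product activates the nuclease RNase L, changed by -0.51, -0.66 and 0.46 in the same 3 groups and did not pass in any, with the 2 DM+RYGB arrays at -2.82 and -1.97.

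The transcription factors split. Irf7 read -0.93, -0.82 and -0.87 on the DM+Sham arrays, -0.93, -0.98 and -0.95 on the Control+RYGB arrays, -0.24 and -0.17 on the DM+RYGB arrays, and 0.77, 0.70 and 0.84 on the Control+Sham arrays. Irf7, which drives the interferon alpha genes, was highest in Control+Sham, intermediate in DM+RYGB and low in the other groups, with no overlap of Control+Sham with any of them. Its level in DM+Sham was 0.318 times that in Control+Sham (change -1.65, SE 0.09, adjusted p = 0.00023). It was 0.304 times in Control+RYGB (-1.72, SE 0.09, adjusted p = 0.00024) and 0.508 times in DM+RYGB (-0.98, SE 0.09, adjusted p = 0.00053).

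Irf9 read -2.27, -2.30 and -2.34 on the DM+Sham arrays, -2.29, -2.37 and -2.33 on the Control+RYGB arrays, -1.39 and -1.44 on the DM+RYGB arrays, and -1.80, -1.85 and -1.84 on the Control+Sham arrays. Irf9, the DNA-binding partner of Stat2, was lower than Control+Sham on every sham diabetic and every control bypass array and higher on both diabetic bypass arrays. It fell by 0.46 in DM+Sham (SE 0.09, adjusted p = 0.016) and by 0.49 in Control+RYGB (SE 0.09, adjusted p = 0.014). The DM+RYGB change was 0.42 but -0.04 under median scaling, and was not called. Stat2 read 0.77, 0.87 and 0.86 on the DM+Sham arrays, 0.53, 0.44 and 0.46 on the Control+RYGB arrays, 0.96 and 0.76 on the DM+RYGB arrays, and 1.24, 1.18 and 1.16 on the Control+Sham arrays. Control+Sham was highest and Control+RYGB lowest, with a fall of 0.70 in Control+RYGB (SE 0.10, adjusted p = 0.0076) and uncalled changes of -0.38 in DM+Sham and -0.33 in DM+RYGB.

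Irf1 was the member that rose in Control+RYGB. Irf1 read 2.14, 2.28 and 2.29 on the DM+Sham arrays, 3.71, 3.74 and 3.82 on the Control+RYGB arrays, 1.77 and 2.06 on the DM+RYGB arrays, and 2.73, 2.73 and 2.56 on the Control+Sham arrays. All 3 Control+RYGB arrays lay above all other arrays, and both DM+RYGB arrays lay below all others. The change was 1.07 in Control+RYGB (2.1 times, SE 0.13, adjusted p = 0.0041), -0.76 in DM+RYGB (SE 0.13, adjusted p = 0.0034) and -0.46 in DM+Sham, which was not called. A dimmer second probe of Irf1 gave 1.12 in Control+RYGB and -0.37 in DM+Sham, but 0.57 in DM+RYGB, so the fall in DM+RYGB rests on 1 probe. Ifi35, a leucine zipper protein, changed by 0.04 in Control+RYGB and 0.19 in DM+RYGB and by less than 0.01 in DM+Sham, and was not called.

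Isg15, the ubiquitin-like protein that is joined to other proteins after interferon, fell in all 3 comparisons. Isg15 read -2.19, -2.06 and -2.06 on the DM+Sham arrays, -1.62, -1.63 and -1.68 on the Control+RYGB arrays, -1.22 and -1.08 on the DM+RYGB arrays, and -0.25, -0.28 and -0.36 on the Control+Sham arrays. The 4 groups did not overlap, with DM+Sham lowest, then Control+RYGB, DM+RYGB and Control+Sham. Its level in DM+Sham was 0.281 times that in Control+Sham (change -1.83, SE 0.10, adjusted p = 0.00019), and it was 0.393 times in Control+RYGB (-1.35, SE 0.10, adjusted p = 0.00077) and 0.551 times in DM+RYGB (-0.86, SE 0.10, adjusted p = 0.001).

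Usp18 removes Isg15 from proteins and damps the type I interferon receptor. Usp18 read -3.43, -3.53 and -3.52 on the DM+Sham arrays, -3.14, -3.48 and -3.38 on the Control+RYGB arrays, -2.38 and -1.89 on the DM+RYGB arrays, and -2.12, -2.23 and -2.12 on the Control+Sham arrays. DM+Sham and Control+RYGB lay together and below the others, while the DM+RYGB arrays lay on both sides of Control+Sham. Usp18 fell by 1.32 in DM+Sham (SE 0.17, adjusted p = 0.0038) and by 1.13 in Control+RYGB (SE 0.17, adjusted p = 0.0081), and changed by 0.02 in DM+RYGB. A second probe gave -1.41, -1.32 and -0.14.

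Parp9 is a macrodomain protein that works with the ubiquitin ligase Dtx3l. Parp9 read -1.03, -0.90 and -0.85 on the DM+Sham arrays, -1.20, -1.16 and -1.17 on the Control+RYGB arrays, -0.04 and -0.40 on the DM+RYGB arrays, and -0.41, -0.07 and -0.41 on the Control+Sham arrays. The DM+Sham and Control+RYGB arrays lay below all others, and DM+RYGB overlapped Control+Sham. Parp9 fell by 0.65 in DM+Sham (SE 0.16, adjusted p = 0.036) and by 0.89 in Control+RYGB (SE 0.16, adjusted p = 0.014), with 0.08 in DM+RYGB. Parp14 read 0.51, 0.70 and 0.71 on the DM+Sham arrays, 0.30, 0.45 and 0.44 on the Control+RYGB arrays, 0.63 and 0.39 on the DM+RYGB arrays, and 0.99, 1.07 and 0.95 on the Control+Sham arrays. Parp14, which adds single ADP-ribose units, fell in Control+RYGB (-0.63, SE 0.12, adjusted p = 0.017) and DM+RYGB (-0.49, SE 0.12, adjusted p = 0.015), and Control+Sham was above all other arrays. Its DM+Sham change of -0.40 was not called, and a second probe gave -0.26, -0.30 and -0.13.

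Dtx3l changed by -0.10, -0.38 and 0.06 in DM+Sham, Control+RYGB and DM+RYGB, and none passed. Trim25, the ligase that acts on the RNA sensor RIG-I, changed by 0.31, -0.05 and -0.32, and none passed. The Dtx3l probe was dim and its DM+RYGB change was -0.68 under quantile scaling.

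**Figure D3:**
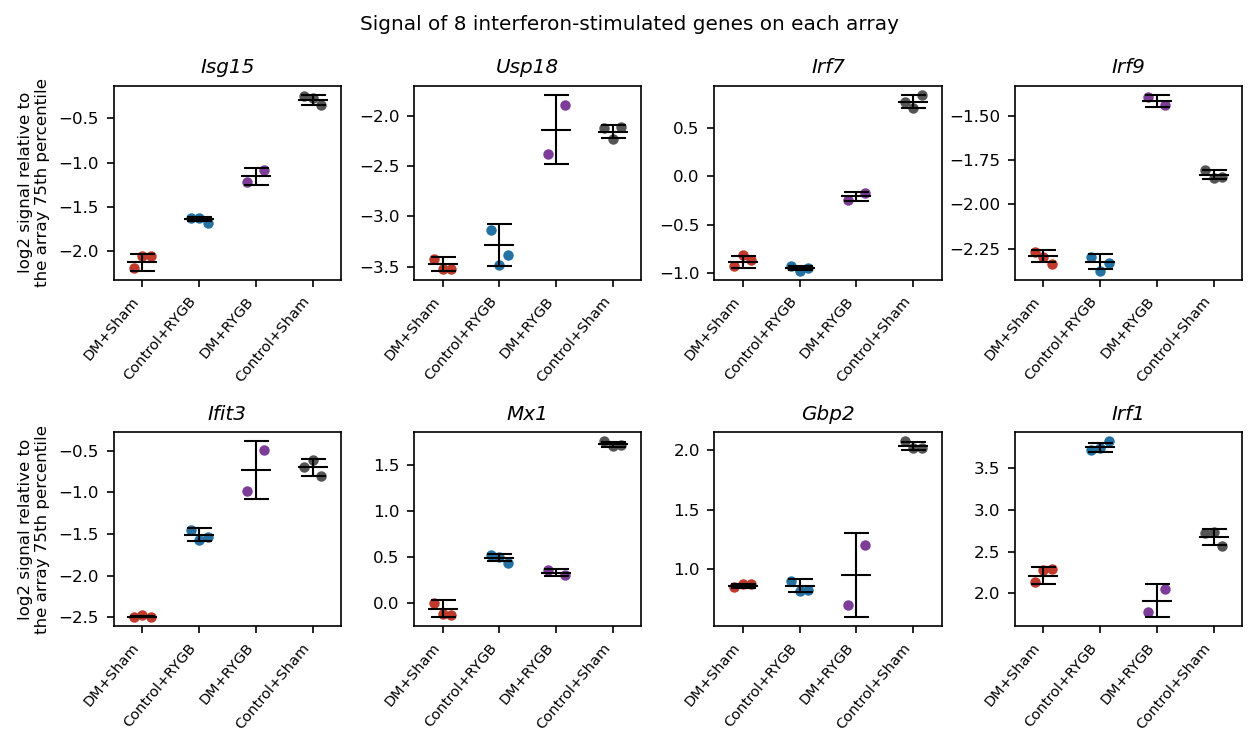
Points are the log2 signal relative to the 75th percentile of each array for 8 genes, with group means and SD (bars, over 2 samples for DM+Sham, Control+RYGB and DM+RYGB and 3 for Control+Sham). Isg15, Irf7, Mx1 and Gbp2 are highest in Control+Sham, Irf9 is highest in DM+RYGB, and Irf1 is highest in Control+RYGB.

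Of 10 effector genes, 4 fell in DM+Sham, 6 in Control+RYGB and 2 in DM+RYGB, and 0 rose in any of the 3, where 6.64%, 8.36% and 16% of all genes fell. Ifit2 and Ifit3, tetratricopeptide proteins that bind foreign RNA, had the largest falls of this class in DM+Sham and Control+RYGB. Ifit3 read -2.50, -2.48 and -2.50 on the DM+Sham arrays, -1.45, -1.58 and -1.54 on the Control+RYGB arrays, -0.98 and -0.49 on the DM+RYGB arrays, and -0.69, -0.60 and -0.80 on the Control+Sham arrays. DM+Sham lay lowest, Control+RYGB next, and DM+RYGB spanned the Control+Sham range. Ifit3 fell by 1.80 in DM+Sham (SE 0.16, adjusted p = 0.0009) and by 0.81 in Control+RYGB (SE 0.16, adjusted p = 0.017), with -0.03 in DM+RYGB.

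Ifit2 read -1.23, -1.29 and -1.28 on the DM+Sham arrays, -0.74, -0.85 and -0.78 on the Control+RYGB arrays, -0.21 and -0.04 on the DM+RYGB arrays, and 0.09, 0.14 and 0.07 on the Control+Sham arrays. The order of groups was that of Ifit3, but both DM+RYGB arrays stayed below Control+Sham. Ifit2 fell by 1.36 in DM+Sham (SE 0.10, adjusted p = 0.00044) and by 0.88 in Control+RYGB (SE 0.10, adjusted p = 0.0035), with an uncalled -0.23 in DM+RYGB. Ifi44l read -2.43, -2.55 and -2.56 on the DM+Sham arrays, -2.00, -2.03 and -2.04 on the Control+RYGB arrays, -1.78 and -1.67 on the DM+RYGB arrays, and -1.63, -1.51 and -1.63 on the Control+Sham arrays. Ifi44l, whose product restrains several viruses, fell by 0.90 in DM+Sham (SE 0.10, adjusted p = 0.0021) and by 0.43 in Control+RYGB (SE 0.10, adjusted p = 0.028). Ifi44, its neighbour in the family, fell by 0.73 in DM+Sham and by 0.63 in Control+RYGB.

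Cmpk2, a mitochondrial nucleotide kinase, had a different order. Cmpk2 read -1.11, -0.98 and -0.99 on the DM+Sham arrays, -1.57, -1.55 and -1.57 on the Control+RYGB arrays, -1.65 and -1.50 on the DM+RYGB arrays, and -0.87, -0.87 and -0.91 on the Control+Sham arrays. Both bypass groups were low, and DM+Sham lay near Control+Sham without overlapping it. Cmpk2 fell by 0.68 in Control+RYGB (SE 0.10, adjusted p = 0.007) and by 0.69 in DM+RYGB (SE 0.10, adjusted p = 0.0019), with an uncalled -0.16 in DM+Sham. Rsad2 (viperin), encoded beside Cmpk2, read -0.97 on DM+RYGB 1 and 0.51 on DM+RYGB 2, against 1.12, 1.16 and 1.02 on the Control+Sham arrays. Rsad2 fell by 1.33 in DM+RYGB (SE 0.38, adjusted p = 0.023), a change that was -0.59 without DM+RYGB 1 and -2.06 without DM+RYGB 2, and the call was lost without Control+Sham 1, 2 or 3, DM+Sham 1 or Control+RYGB 1.

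Lgals3bp, a secreted galectin-binding glycoprotein, fell in Control+RYGB (-0.59, SE 0.11, adjusted p = 0.014). Ifi27, a mitochondrial protein, Bst2 and the RNA-editing enzyme Adar fell in no comparison with Control+Sham. Adar changed by 0.42 in DM+Sham and 0.40 in DM+RYGB but by -0.06 in DM+RYGB under median scaling, and was not called in either.

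Mx1 and Gbp2 were high in Control+Sham and low in all other groups. Mx1 read 0.00, -0.13 and -0.14 on the DM+Sham arrays, 0.52, 0.49 and 0.44 on the Control+RYGB arrays, 0.35 and 0.30 on the DM+RYGB arrays, and 1.76, 1.71 and 1.72 on the Control+Sham arrays. The Control+Sham arrays lay far above the rest, and none of the 4 groups overlapped. Mx1, a dynamin-like GTPase that blocks influenza viruses in rodents, changed by -1.80 in DM+Sham (0.288 times, SE 0.09, adjusted p = 0.00014), -1.24 in Control+RYGB (0.424 times, SE 0.09, adjusted p = 0.00078) and -1.40 in DM+RYGB (0.378 times, SE 0.09, adjusted p = 0.00016).

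Mx2 read 4.44, 4.20 and 4.20 on the DM+Sham arrays, 4.70, 4.68 and 4.74 on the Control+RYGB arrays, 4.68 and 4.29 on the DM+RYGB arrays, and 4.50, 4.47 and 4.31 on the Control+Sham arrays. Mx2, the cytoplasmic relative of Mx1 in rodents, overlapped between groups and was not called in any of the 3 comparisons (-0.11, 0.28 and 0.06). Probe sequences were not used here, so whether probes of related genes pick up each other's transcripts was not tested.

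Gbp2 read 0.85, 0.88 and 0.87 on the DM+Sham arrays, 0.90, 0.82 and 0.83 on the Control+RYGB arrays, 0.70 and 1.20 on the DM+RYGB arrays, and 2.07, 2.02 and 2.02 on the Control+Sham arrays. Gbp2, a guanylate-binding protein that attacks vacuoles of intracellular pathogens, was lower than Control+Sham on all 8 arrays of the other groups. Its changes were -1.18 in DM+Sham (SE 0.15, adjusted p = 0.0039), -1.17 in Control+RYGB (SE 0.15, adjusted p = 0.0054) and -1.09 in DM+RYGB (SE 0.15, adjusted p = 0.0018). Gbp5 read -1.19, -0.93 and -0.92 on the DM+Sham arrays, -1.59, -1.43 and -1.42 on the Control+RYGB arrays, -1.85 and -0.93 on the DM+RYGB arrays, and -0.25, -0.15 and -0.22 on the Control+Sham arrays. Gbp5, which promotes inflammasome assembly, fell by 1.30 in Control+RYGB (SE 0.26, adjusted p = 0.018) and by 1.18 in DM+RYGB (SE 0.26, adjusted p = 0.009), with an uncalled -0.85 in DM+Sham. A second Gbp5 probe gave -1.07, -1.28 and -0.15, so the DM+RYGB value differs between probes. The DM+RYGB change of the first probe ran from -1.64 to -0.72 when 1 array was left out, and the call was kept.

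Bypass in diabetic rats was read in DM+RYGB against DM+Sham. Here 7 of 30 genes rose and 3 fell, where 10.4% of all genes rose, 15.7% fell and 26.1% changed. The median change was 0.29, against 0.34 for all genes, -0.08 against -0.04 under median scaling, and 0.19 against -0.06 under quantile scaling. With only probes well above background on all arrays, the median of all genes was 0.16, beside 0.29 for the members. Whether the members lay below or above all genes thus depends on the scaling and on the dim probes kept. Ifit3 (1.76, SE 0.17, adjusted p = 0.0008), Usp18 (1.34, SE 0.19, adjusted p = 0.0023), Ifih1 (1.16, SE 0.14, adjusted p = 0.0013), Ifit2 (1.13), Isg15 (0.97), Irf9 (0.87) and Ifi44l (0.77) rose. Trim25, Cmpk2 and Eif2ak2 fell by 0.62, 0.53 and 0.52. The Trim25 change ran from -0.84 to -0.41, and its call was lost without Control+Sham 1, 2 or 3, DM+Sham 1, Control+RYGB 1 or DM+RYGB 1. The count of 10 was 5 without DM+Sham 1, 10 without DM+RYGB 1, 11 without DM+RYGB 2, 17 with the 75th percentile scaling alone and 1 when the 2 groups were fitted alone. After normexp limma called 0, with all 10 signs kept and 16 of 30 genes at an unadjusted p under 0.05. On scan day 4, which held both groups, all 10 differed in the same direction, with 1.52 for Ifit3 and 1.14 for Usp18. The 10 genes were called with these same arrays, so the shared direction is not a separate test.

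Diabetes among rats with bypass was read in DM+RYGB against Control+RYGB. Of the 30 genes, 4 rose and 1 fell, where 7.45% of all genes rose, 10.9% fell and 18.3% changed, so the members' count lay near the background. Usp18 (1.15, SE 0.19, adjusted p = 0.0049), Parp9 (0.96, SE 0.18, adjusted p = 0.008), Irf9 (0.91, SE 0.10, adjusted p = 0.0011) and Irf7 (0.74, SE 0.10, adjusted p = 0.0029) rose. Irf1 fell by 1.83 (SE 0.14, adjusted p = 0.00035), with -0.55 for its second probe. On scan days 4 and 5, which held both groups, all 5 had the same sign, but they were called from these same arrays, so this is not a separate test. Every Control+RYGB array lay at a slide position that no DM+RYGB array had, so group and position cannot be told apart here either. The count was 2 without Control+RYGB 1, 3 without Control+Sham 1, 6 without DM+RYGB 1 and 6 without DM+RYGB 2, and each single scaling gave more, from 8 to 12. It was 1 after normexp, with all 5 signs kept.

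The change with bypass differed between diabetic and control rats for 16 of these genes. The interaction, which is the bypass change in diabetic rats minus that in control rats, passed for 15 of 30 genes with a positive sign and for 1 with a negative sign, where 6.48% of all genes were positive, 9.35% negative and 15.8% either. The median interaction of the 30 was 1.01, against 0.14 for all genes, and 0.81 against -0.06 under median scaling. The Control+Sham level enters this term with a positive sign, so the term is not separate from the high Control+Sham levels given above. Urothelium markers also had a positive interaction, in 6 of 7 genes with a median of 4.32, and their part in the members' term was not tested. Ifit3 changed by 1.76 with bypass in diabetic rats and by -0.81 in control rats, an interaction of 2.57 (SE 0.23, adjusted p = 0.0011). Usp18 changed by 1.34 and -1.13 (interaction 2.47, SE 0.25, adjusted p = 0.0016), Irf7 by 0.68 and -1.72 (2.39, SE 0.14, adjusted p = 0.00029) and Isg15 by 0.97 and -1.35 (2.32, SE 0.15, adjusted p = 0.00039).

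Sensors, factors, modifiers, effectors and GTPases all had members with a positive interaction, in 4 of 5, 2 of 5, 3 of 6, 4 of 10 and 2 of 4 genes. Mx1 and Gbp2 had uncalled changes of 0.39 and 0.09 with bypass in diabetic rats, beside -1.24 and -1.17 in control rats. Of the 16 called genes, Irf1 alone was negative, at -1.37 (SE 0.19, adjusted p = 0.0041), and its second probe gave -0.18. The count of 16 was 2 after normexp, with all 16 signs kept, 10 without Control+RYGB 2 and 3, and 17 and 19 without DM+RYGB 1 and 2.

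**Figure D4:**
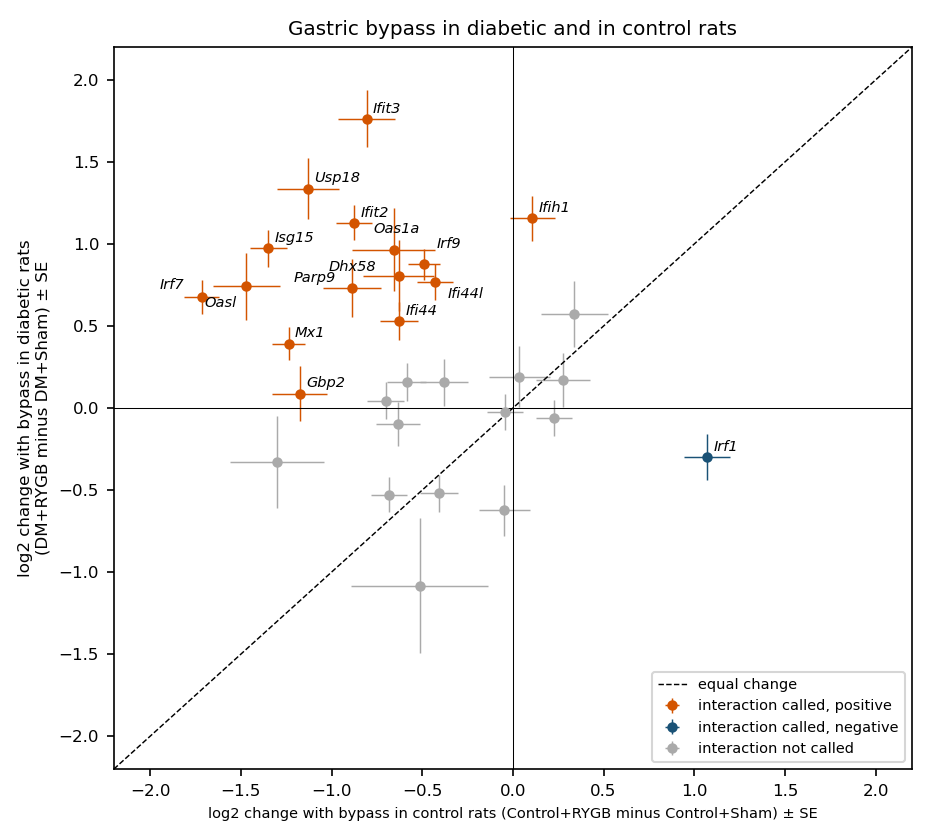
The vertical axis gives the log2 change with bypass in diabetic rats (DM+RYGB minus DM+Sham), the horizontal axis that in control rats (Control+RYGB minus Control+Sham), with SE as lines, for 30 genes. The 15 genes with a called positive interaction lie above the dashed line of equal change, and Irf1 lies below it.

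Other genes of the pathway came from 4 lists. Of 50 further interferon-stimulated genes measured (72 listed), 14 fell and 3 rose in DM+Sham, 9 fell and 2 rose in Control+RYGB, and 9 fell and 4 rose in DM+RYGB. Of all genes, 6.64% fell and 5.9% rose in DM+Sham, 8.36% and 6.93% in Control+RYGB, and 16% and 11.9% in DM+RYGB, so the DM+RYGB counts lay near the background. Rtp4, a chaperone of receptors, fell by 1.87 in DM+Sham (SE 0.17, adjusted p = 0.001) and by 0.71 in Control+RYGB (SE 0.17, adjusted p = 0.03). Oas1i, of the oligoadenylate synthetase family, fell by 1.85 in DM+Sham (SE 0.20, adjusted p = 0.0019), and Cd69, an activation marker of lymphocytes, fell by 0.88 in DM+Sham and by 0.95 in DM+RYGB. Ifit1 was well above background on the 3 DM+Sham arrays and on no other array.

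Cxcl10, a chemokine that attracts T cells and that interferon gamma induces, rose in Control+RYGB and fell in DM+RYGB, as the first Irf1 probe did. Cxcl10 read 1.12, 1.01 and 1.02 on the DM+Sham arrays, 5.39, 5.32 and 5.36 on the Control+RYGB arrays, 0.96 and 0.70 on the DM+RYGB arrays, and 2.70, 2.66 and 2.70 on the Control+Sham arrays. Control+RYGB stood far above all other arrays and Control+Sham next. Cxcl10 fell by 1.62 in DM+Sham (SE 0.11, adjusted p = 0.00034), rose by 2.68 in Control+RYGB (SE 0.11, adjusted p = 8.5e-05) and fell by 1.86 in DM+RYGB (SE 0.11, adjusted p = 0.00011). Cxcl11, its relative on the same receptor, rose by 1.65 in Control+RYGB (SE 0.09, adjusted p = 0.00022) and was named after its values were seen. Cxcl9, of the same list and also named after its values were seen, went the other way. It read -4.44, -4.50 and -4.34 on the Control+RYGB arrays and -4.00, -3.55 and -4.05 on the Control+Sham arrays.

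Ligands, receptors and the signalling chain came from the other lists. Of 9 ligands and receptors measured (15 listed), 1 fell in DM+Sham, Il10rb (-0.59, SE 0.14, adjusted p = 0.031), and 0 rose, where 6.64% of all genes fell and 5.9% rose. Ifnar1, a chain of the type I receptor, changed by 0.29, -0.06 and 0.11 in DM+Sham, Control+RYGB and DM+RYGB. Ifngr1, of the gamma receptor, changed by -0.38, -0.51 (called) and 0.43. Ifnb1, the beta interferon, was well above background on all DM+Sham, Control+RYGB and DM+RYGB arrays but on 1 of 3 Control+Sham arrays. It passed as a rise of 1.84 in DM+RYGB (SE 0.35, adjusted p = 0.0057), but the Control+Sham mean rests mostly on readings not well above background. The share of all probes above background also differed, at 80.3%, 77.8% and 90.5% on the Control+Sham arrays and 91.3% and 90.0% on the DM+RYGB arrays. The size of this Ifnb1 change is therefore uncertain, and whether the gene was induced was not tested. Ifnb1 also read -5.88, -5.73 and -6.05 in Control+RYGB, beside -7.68, -7.10 and -6.34 in Control+Sham. Ifna4, the alpha interferon measured, was well above background on all 11 arrays and was named after its values were seen. It read -4.49, -4.78 and -4.81 in DM+Sham and -3.36, -3.28 and -4.01 in Control+RYGB. In DM+RYGB it read -2.50 and -2.99, and in Control+Sham -4.445, -4.78 and -5.27. Ifng, on 10 arrays, changed by -0.35, 0.09 and -0.22.

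Of 16 kinases, factors and inhibitors measured (18 listed), 1 fell in DM+Sham, the phosphatase Ptpn2 (-0.88, SE 0.15, adjusted p = 0.012), and 0 rose. Of all genes, 6.64% fell and 5.9% rose in DM+Sham, so this count lay near the background. In Control+RYGB 1 of the 16 fell and 1 rose, beside 8.36% and 6.93% of all genes. In DM+RYGB 4 fell and 0 rose, beside 16% and 11.9%. Jak1, a kinase of both receptors, changed by -0.18 in DM+Sham, -0.24 in Control+RYGB and 0.05 in DM+RYGB and was not called. Of 12 genes of nucleic acid sensing measured (23 listed), Tbk1 (-0.56, SE 0.11, adjusted p = 0.018) and Tlr4 (-0.36, SE 0.10, adjusted p = 0.047) fell in DM+Sham, and Tlr8 rose by 0.73 (SE 0.11, adjusted p = 0.0083). The shares of all genes in DM+Sham, 6.64% and 5.9%, apply here too.

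Markers of other cell types were read on the same arrays. Most urothelium markers moved with the members: of 7 measured (8 listed), 6 fell in DM+Sham, 6 in Control+RYGB and 5 in DM+RYGB. Krt5 went the other way, with uncalled changes of 0.42 in Control+RYGB and 0.72 in DM+RYGB. Krt20 was also higher on the DM+RYGB arrays (-4.31 and -4.38) than on the Control+Sham arrays (-4.81, -5.09 and -4.86), and was not called. The log2 of their summed scaled signal was -1.33 to -1.25 in DM+Sham, -1.64 to -1.33 in Control+RYGB, -0.26 and -0.59 in DM+RYGB, and 1.96 to 2.05 in Control+Sham. Upk1a read -3.54, -3.66 and -3.64 on the DM+Sham arrays, -3.63, -3.60 and -3.78 on the Control+RYGB arrays, -2.74 and -3.28 on the DM+RYGB arrays, and -0.84, -0.88 and -0.94 on the Control+Sham arrays. Control+Sham was far above all other groups in Upk1a, a uroplakin of the bladder and renal pelvis lining. For Upk2, 1 DM+Sham array, 3 Control+RYGB arrays, 1 DM+RYGB array and 3 Control+Sham arrays exceeded background. For Krt15, the numbers were 0, 1, 1 and 3. The part of this tissue in the levels of the interferon-stimulated genes was not tested.

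Immune cell markers were read in the same way. Of 10 T and NK cell markers, 2 fell in DM+Sham, 1 in Control+RYGB and 1 in DM+RYGB, beside 6.64%, 8.36% and 16% of all genes, with summed levels of 0.45 to 0.47 in DM+Sham, 0.83 to 0.99 in Control+RYGB, 0.92 and 0.78 in DM+RYGB, and 0.83 to 1.02 in Control+Sham. The marker that fell in all 3 was Gzmb, a granzyme of cytotoxic cells, with changes of -2.28, -1.53 and -0.90. The list as a whole did not follow Gzmb in the bypass groups. The median change of the 10 markers was -0.35 in DM+Sham, 0.19 in Control+RYGB and 0.29 in DM+RYGB, with 8, 3 and 4 of 10 below 0. Of 10 macrophage markers, 1 fell in DM+Sham (Adgre1, -0.58), 0 in Control+RYGB and 1 in DM+RYGB, beside 6.64%, 8.36% and 16% of all genes. Their summed levels were 4.37 to 4.86, 5.22 to 5.64, 5.21 and 4.84, and 4.54 to 4.97 in the 4 groups in the same order. The list did not follow Adgre1 as a whole. Cd163 went the other way, with uncalled changes of 2.28, 1.74 and 3.21. The median change of the 10 markers was -0.24 in DM+Sham, -0.02 in Control+RYGB and 0.09 in DM+RYGB, with 8, 5 and 4 of 10 below 0. Of 4 leukocyte markers, 0 were called in DM+Sham or Control+RYGB, and 1, Ptprc, fell by 0.91 in DM+RYGB, where 16% of all genes fell. Their summed levels were 3.05 to 3.17, 2.99 to 3.06, 3.06 and 2.94, and 3.09 to 3.20. Cd52 went the other way, with uncalled changes of 1.46, 1.15 and 1.82 in DM+Sham, Control+RYGB and DM+RYGB. The median change of the 4 markers was -0.01, -0.12 and 0.03, so the list did not follow Ptprc. Siglech, which defines plasmacytoid dendritic cells, was not analysed here. Proximal tubule markers fell in DM+RYGB, in 4 of 7 genes, with summed levels of 7.35 and 6.56 in DM+RYGB and 7.26 to 7.64 in Control+Sham. In DM+RYGB, 4 of 5 podocyte, 2 of 3 loop and distal, and 2 of 4 collecting duct markers rose, and summed red blood cell markers read 4.21 on DM+RYGB 1 and 6.75 on DM+RYGB 2. The part of these cells in the results was not tested.

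**Figure D5:**
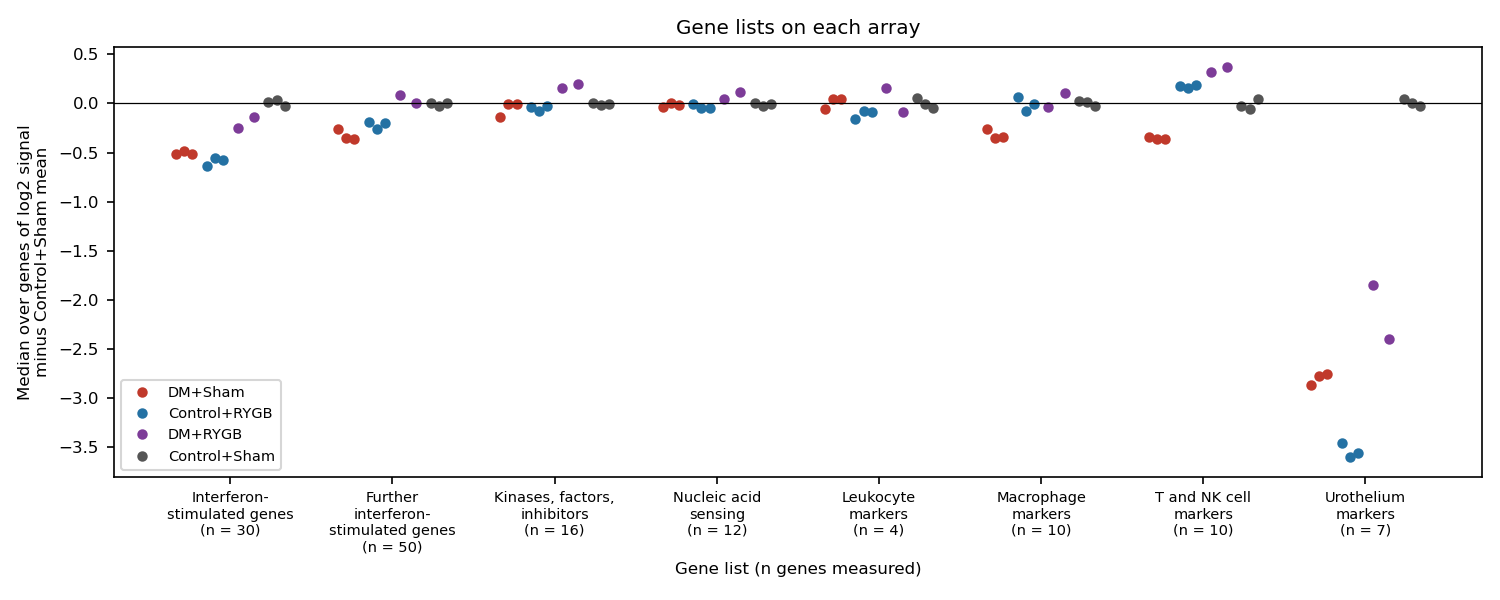
Each point is 1 array: the median over the genes of a list of the log2 signal minus the Control+Sham mean. The interferon-stimulated genes lie at -0.52 to -0.48 in DM+Sham, -0.64 to -0.55 in Control+RYGB and -0.25 and -0.13 in DM+RYGB, and the urothelium markers lie at -2.87 to -2.75, -3.60 to -3.46, and -1.85 and -2.40 in the same groups.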

How the data were processed

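Renal cortex RNA of 11 rat samples was hybridised to one-colour Agilent arrays. Per the file headers, the authors read the intensity of each spot using Agilent Feature Extraction 11.0.1.1, a program that removes background signal, and the deposited arrays are unscaled relative to each other. The authors' value table, also deposited, is on a log2 scale with a median of 7.07 in every column and a correlation of 0.9887 to 0.9969 with the scanner intensities of the same array after log2; how it was made is not given in the sources used here, and it served as an alternative.

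From the scanner files, 1377 of 44254 spots were controls and were left out, and spots of a probe were averaged to 30367 probes. RefSeq accessions (GRCr8 table) named 18005 of them. Arrays differing by less than repeated-spot noise on 1308 probes with at least 5 spots were averaged, a rule set after the values had been seen. Groups were fitted with limma 3.58.1 (R 4.3.3) in 1 model of 9 samples with 5 residual degrees of freedom, and p-values were adjusted by Benjamini and Hochberg over 25256 genes. The fit was tested on simulated data. The precision is limited by the number of arrays.

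Values on every array are given for up to 4 members per role with the smallest p in the comparisons with Control+Sham. From each other pathway list, up to 4 called genes with the smallest p in DM+Sham were named, plus a few fixed genes, 1 of which is not reported here. The members and lists were chosen with earlier results of these data known. Alternatives were other scalings, background correction, probe filters, blocks, weights, thresholds and left-out arrays.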

Additional observations from a re-analysis of the deposited data

Results flagged for a closer look

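The change with bypass differed between diabetic and control rats, by the interaction in limma with Benjamini-Hochberg adjustment over all genes, for 16 interferon-stimulated genes. The interaction on the log2 scale was 2.57 for Ifit3, 2.47 for Usp18, 2.39 for Irf7, 2.32 for Isg15, 2.21 for Oasl and 2.01 for Ifit2. It was 1.63 for Mx1, 1.62 for Oas1a, 1.62 for Parp9, 1.44 for Dhx58, 1.36 for Irf9 and 1.26 for Gbp2. Ifi44l had 1.2, Ifi44 1.16 and Ifih1 1.05, and Irf1 had -1.37. Adjusted p-values were between 0.00029 (Irf7) and 0.018 (Oas1a). All Control+RYGB arrays lay at a slide position of their own, so position and group cannot be told apart in this term. The Control+Sham level enters the term with a positive sign, so the term and the high Control+Sham levels are not separate results. Urothelium markers had a positive interaction too, in 6 of 7 genes with a median of 4.32, and their part was not tested. Over 13 fits that left out 1 array or 1 averaged pair, Oas1a lost its call in 7, Dhx58 and Gbp2 in 6, Ifih1 in 5, Parp9 in 2, and Ifi44 and Ifi44l in 1. Irf7, Isg15, Ifit3, Usp18, Oasl, Ifit2, Mx1, Irf9 and Irf1 kept theirs in all 13.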

How the results depend on the processing

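Counts of called members moved by over 1.5 times under these settings, some of which used fewer samples or a stricter threshold, and the cause was not tested. In DM+Sham against Control+Sham (14), normexp gave 1, scan day as a block 9, a 2-fold threshold 8, and leaving out DM+Sham 2 and 3 gave 8. In Control+RYGB against Control+Sham (19), normexp gave 1, scan day 1, 2-fold 7 and leaving out Control+RYGB 2 and 3 gave 5. In DM+RYGB against Control+Sham (11), median scaling alone gave 17, scan day 4 and 2-fold 3. In DM+RYGB against DM+Sham (10), the 75th percentile alone gave 17, normexp 0 by limma with 16 at an unadjusted p under 0.05, scan day 5, array weights 5, 2-fold 1, leaving out DM+Sham 2 and 3 gave 4, and fitting only the groups compared 1. In DM+RYGB against Control+RYGB (5), the 75th percentile, median and quantile scaling alone gave 12, 8 and 10, normexp 1, the deposited table of values gave 10, 11 separate arrays 9, the shared slide as a block 10, array weights 2, 2-fold 1, leaving out Control+RYGB 2 and 3 gave 1, and only the groups compared 1. The interaction (16) gave 2 with normexp and 10 without Control+RYGB 2 and 3. Leaving out each array in turn gave 11 to 20, 6 to 21, 9 to 14, 5 to 11, 2 to 6 and 11 to 19 in the 6 comparisons. Between arrays of the same replicate number, correlations of deviations ran from -0.38 to 0.45, with 5 of 15 pairs over 0.1. Arrays of different numbers were not compared, so these values cannot decide whether replicate numbers pair the samples. The replicate block gave 20, 21, 11, 11, 8 and 17. Members highest in Control+Sham (16) numbered 13 to 24, and the share of all genes under those settings is not given here. Oasl in DM+RYGB against Control+Sham turned to 1.06 with normexp. Dtx3l turned to -0.68 with quantile scaling and -0.64 in the deposited table in that comparison, and to -0.56 and -0.53 in DM+RYGB against DM+Sham. Under the other scalings, normexp, the deposited table, the probe filters and the probe mean, 1291 of 1440 values for members kept direction and side of the threshold. Over the 13 fits that left out arrays, calls were lost most often for Dhx58 (6), Irf9 (6) and Parp9 (7) in DM+Sham and Eif2ak2 (7) in Control+RYGB, for Rsad2 (7) and Parp14 (6) in DM+RYGB against Control+Sham, for Trim25 (8) and Ifi44l (7) against DM+Sham, and for Parp9 (6) and Irf7 (5) against Control+RYGB. Dim probes such as Oasl and Dtx3l limit what signal over background can show.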
